A study of Homo sapiens with 10 samples.

Results

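The 10 genes described here encode the 5 subunits of the transcription factor NF-kB (RELA, RELB, REL, NFKB1 and NFKB2), 3 cytoplasmic inhibitors that bind those subunits (NFKBIA, NFKBIB and NFKBIE), the ubiquitin-editing inhibitor TNFAIP3, and ZC3H12A, the endoribonuclease Regnase-1. They were listed by name, chosen by their role and by measured differences between the groups. They are 10 of the 58676 genes of the count tables, and all 10 passed the filter on low counts that left 16936 genes for testing. The list was drawn up with log2 fold changes of BRSK2 against the control cells already known, so the members' values in the contrast of BRSK2 with the controls, and in the contrast of the kinases with each other, are given as a description with no test. BRSK1 against the controls is given with its test, but it uses the same 4 control libraries, so that test is not independent of the choice.

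RNA was sequenced from HEK293T, a human embryonic kidney cell line that carries adenoviral and SV40 sequences. The cells expressed BRSK2 (3 libraries), BRSK1 (3 libraries) or hcRED, a red fluorescent protein (2 libraries, numbered 1 and 3), for 24 hours, or were labelled Mock (2 libraries, numbered 2 and 3). What the Mock cells received is not given in the labels, and neither is whether the libraries of a group came from separate cultures, so p-values measure the spread between these libraries, which may be technical. The BRSK2 and BRSK1 groups are transient expression models in 1 cell line, with the kinase far above its own level. BRSK2 and BRSK1 are brain-enriched serine/threonine kinases related to AMPK, and the series asks what their overexpression changes in the RNA of these cells.

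NF-kB acts as dimers of its 5 subunits. RELA, RELB and REL carry a transactivation domain, while NFKB1 and NFKB2 are made as long precursors that are processed to the DNA-binding subunits p50 and p52. In the canonical pathway the IKK complex phosphorylates the inhibitors, which are then degraded and release RELA- and REL-containing dimers. In the noncanonical pathway the kinase NIK, encoded by MAP3K14, drives the processing of the NFKB2 precursor, which lets RELB-p52 dimers enter the nucleus. Several of the genes for the subunits, inhibitors, TNFAIP3 and ZC3H12A are themselves known targets of NF-kB. TNFAIP3 damps the pathway by editing ubiquitin chains on signalling proteins, and Regnase-1 by cleaving inflammatory mRNAs.

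Stretches upstream of the members' start sites are shown because these genes are known both as parts of NF-kB and as its targets. RefSeq (GRCh38.p14) start-site windows were at hand for 8 of the 10 members, with 13 start sites between them, and the 250 bases before each start were searched on both strands for the kappa B consensus, a motif chosen after the sequences had been seen. A match was found upstream of at least 1 start site of 6 of the 8 members. The same search matched 9.96% of all 35116 start sites, and 11.8% of the 27305 genes with 1 or more. Each line below is 30 bases, read 5′ to 3′ on the gene's strand, with the bases covered by a match in capitals.
NFKB2, start site 2, plus strand, chr10:102394461-102394490: gaaacgtcatGGGAATTCCCCcctccgggg
NFKB2, start site 2, plus strand, chr10:102394490-102394519: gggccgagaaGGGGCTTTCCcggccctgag
NFKB2, start site 3, plus strand, chr10:102395519-102395548: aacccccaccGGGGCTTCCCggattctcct
NFKB2, start site 3, plus strand, chr10:102395674-102395703: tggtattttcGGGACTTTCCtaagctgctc
NFKB1, start site 1, plus strand, chr4:102501300-102501329: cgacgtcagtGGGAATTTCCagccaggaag
REL, plus strand, chr2:60881517-60881546: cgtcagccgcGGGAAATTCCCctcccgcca
NFKBIA, minus strand, chr14:35404811-35404840: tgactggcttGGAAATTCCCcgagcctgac
NFKBIB, start site 2, plus strand, chr19:38899931-38899960: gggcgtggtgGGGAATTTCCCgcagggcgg
TNFAIP3, plus strand, chr6:137867188-137867217: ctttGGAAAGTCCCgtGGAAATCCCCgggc

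Positions are counted back from the start site. In NFKB2 the matches lie between positions -107 and -69 of start site 2. Before its start site 3 there are 2 separate matches, at -176 to -167 and at -21 to -12. In TNFAIP3 a pair of matches spans -67 to -46, and in NFKBIA a single match spans -81 to -72. No match to these letters was found before the 2 start sites of RELA or the 1 of ZC3H12A. Start site 1 of NFKB2, start site 2 of NFKB1 and start site 1 of NFKBIB had none either. The matches of NFKB2, REL, NFKBIB and TNFAIP3 lie inside the gene spans given below, which begin before these start sites. For ZC3H12A, the member with the largest difference from the controls, the 140 bases before its annotated gene start are printed for comparison, with no capitals.
ZC3H12A, plus strand, chr1:37474412-37474551: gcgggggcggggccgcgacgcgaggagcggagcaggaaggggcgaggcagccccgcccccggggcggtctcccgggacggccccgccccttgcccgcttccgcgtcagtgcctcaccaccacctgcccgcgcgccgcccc
A match describes these letters only.

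The libraries held 16516116 to 24304302 counts. BRSK2 took 6.99 to 10.4% of the counts in the libraries labelled BRSK2, and BRSK1 took 4.72 to 6.96% in those labelled BRSK1, against at most 0.00990% for BRSK2 and 0.00287% for BRSK1 in all other libraries, so the targeted genes match the labels. Levels below are CPM, a gene's counts relative to the total of its library, after scaling of the totals by the trimmed mean of M values (TMM). Differences are log2 fold changes with their standard errors (SE) from edgeR's quasi-likelihood fit over the 10 libraries, where hcRED and Mock, averaged with equal weight, serve as the controls, and a gene is called at a Benjamini-Hochberg adjusted p under 0.05 over all 16936 genes. Whether more cells held a transcript or each cell held more of it cannot be told apart in these bulk libraries.

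RELB (hg38 chromosome 19, 45001430 to 45038198, plus strand), the partner of p52 in noncanonical dimers, had 13.6, 13.4 and 16.97 CPM in the BRSK2 libraries and 7.001, 9.68 and 9.33 CPM in the BRSK1 libraries. It had 4.99 and 7.97 CPM in the hcRED libraries and 3.38 and 4.50 CPM in the Mock libraries. All 3 BRSK2 libraries lay above every other library, whereas the lowest BRSK1 library lay below the higher hcRED library. The log2 difference from the controls was 1.53 ± 0.16 (SE) with BRSK2, a 2.89-fold higher level. With BRSK1, RELB rose by 0.78 ± 0.17 on the log2 scale, or 1.72-fold (adjusted p = 0.00796).

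NFKB2 (chromosome 10, 102394110 to 102402529, plus strand), whose product is processed to p52, had 40.0, 46.3 and 55.8 CPM with BRSK2 and 35.3, 41.1 and 43.2 CPM with BRSK1. The hcRED libraries had 34.7 and 31.5 CPM and the Mock libraries 30.3 and 26.3 CPM. Every library with a kinase lay above every control library, by a narrow margin between the lowest BRSK1 and the highest hcRED library, and the kinases overlapped each other. NFKB2 differed from the controls by 0.63 ± 0.10 (SE, log2) with BRSK2. It rose by 0.38 ± 0.10 with BRSK1, or 1.30-fold (adjusted p = 0.0271).

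The remaining subunits moved less. RELA (chromosome 11, 65653596 to 65663094, minus strand), the main transactivating subunit of the canonical pathway, ranged from 87.8 to 108 CPM over all 10 libraries, and the control libraries, 93.9 to 103 CPM, lay inside that range. NFKB1 (chromosome 4, 102501329 to 102617302, plus strand), the p50 precursor, ranged from 45.5 to 55.7 CPM, again with the controls inside. REL (chromosome 2, 60881521 to 60931610, plus strand), best known from lymphoid cells, had 18.99, 19.5 and 20.9 CPM with BRSK2, 16.98, 18.9 and 17.8 CPM with BRSK1, and 14.7 to 19.7 CPM in the controls. The log2 differences with BRSK2 were 0.07 ± 0.06 for RELA and 0.05 ± 0.07 for NFKB1, which turned to -0.031 and -0.053 with library totals in place of TMM scaling, and 0.26 ± 0.10 for REL. With BRSK1 they were -0.05 ± 0.06 (adjusted p = 0.730), -0.11 ± 0.07 (adjusted p = 0.366) and 0.12 ± 0.10 (adjusted p = 0.510), and none of the 3 passed the test.

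**Figure D1:**
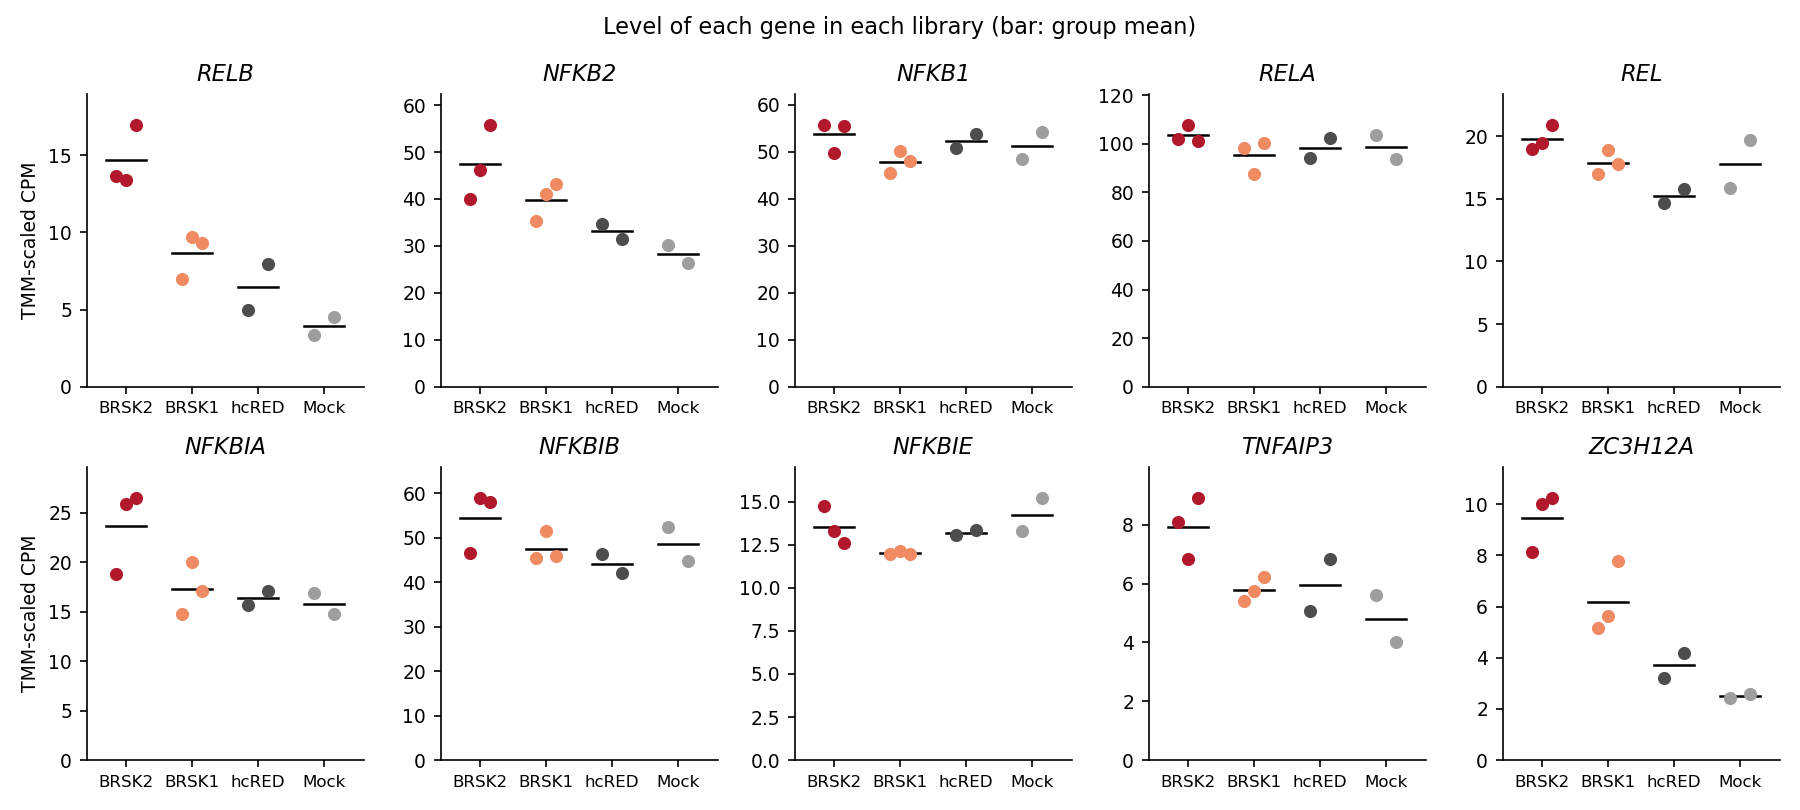
Level of each of the 10 genes in each of the 10 libraries (y axis, TMM-scaled CPM, a separate scale for each gene), with 1 point per library and a bar at each group's mean. The 3 BRSK2 libraries of RELB and of ZC3H12A lie above all other libraries, while the groups of RELA and NFKB1 overlap.

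Among the inhibitors, NFKBIA (chromosome 14, 35401511 to 35404749, minus strand), the IκBα that holds RELA dimers in the cytoplasm and is resynthesized when they act, had 18.8, 25.8 and 26.4 CPM with BRSK2. The BRSK1 libraries had 14.8, 19.99 and 17.04 CPM, the hcRED libraries 15.7 and 17.1 CPM, and the Mock libraries 16.9 and 14.7 CPM. The BRSK2 libraries lay above all controls, while 2 BRSK1 libraries lay within the controls and 1 above them. The log2 difference was 0.56 ± 0.12 with BRSK2, and 0.10 ± 0.12 with BRSK1, which did not pass the test (adjusted p = 0.673).

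NFKBIB (chromosome 19, 38899700 to 38908893, plus strand), IκBβ, had 46.6, 58.8 and 58.0 CPM with BRSK2, 45.3 to 51.5 CPM with BRSK1 and 42.0 to 52.3 CPM in the controls, so the lowest BRSK2 library lay within the controls. Its log2 difference was 0.24 ± 0.08 with BRSK2 and 0.04 ± 0.08 with BRSK1 (adjusted p = 0.834). The gene spans of NFKBIB and SIRT2, on opposite strands, overlap by 163 bases, and SIRT2 had up to 1365 counts in a library. Whether the counting used strand is not stated, so reads from that overlap cannot be told apart.

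NFKBIE (chromosome 6, 44258166 to 44265788, minus strand), IκBε, had the narrowest BRSK1 group of the 10 genes, 11.97, 12.12 and 11.98 CPM, and these 3 libraries lay below the 4 controls at 13.0 to 15.2 CPM. The difference of -0.19 ± 0.10 did not pass the test (adjusted p = 0.296). The BRSK2 libraries, 12.6 to 14.7 CPM, overlapped the controls, with a log2 difference of -0.02 ± 0.11.

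TNFAIP3 (chromosome 6, 137867188 to 137883312, plus strand), the feedback inhibitor, had 8.10, 6.83 and 8.90 CPM with BRSK2 and 5.39, 5.75 and 6.22 CPM with BRSK1. The hcRED libraries had 5.08 and 6.85 CPM and the Mock libraries 5.60 and 4.01 CPM. The lowest BRSK2 library was level with the higher hcRED library, and the BRSK1 libraries lay within the controls. The log2 difference was 0.56 ± 0.16 with BRSK2 and 0.12 ± 0.16 with BRSK1 (adjusted p = 0.730). An antisense transcript that overlaps TNFAIP3 over 1046 bases had at most 20 counts in a library, against at least 81 for TNFAIP3.

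ZC3H12A (chromosome 1, 37474552 to 37484379, plus strand), which encodes Regnase-1, had 8.15, 10.0 and 10.2 CPM with BRSK2 and 5.16, 5.62 and 7.80 CPM with BRSK1. The hcRED libraries had 3.20 and 4.21 CPM and the Mock libraries 2.42 and 2.57 CPM. The 3 kinds of library did not overlap: all BRSK2 libraries lay above all BRSK1 libraries, and these above all 4 controls. The difference from the controls was 1.64 ± 0.17 (SE, log2) with BRSK2, a 3.11-fold higher level and the largest of the 10 genes. With BRSK1, ZC3H12A rose by 1.03 ± 0.17 on the log2 scale, or 2.04-fold (adjusted p = 0.00138).

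Over the 10 genes, 5 passed the threshold in the contrast of BRSK2 with the controls, all higher: RELB, NFKB2, NFKBIA, TNFAIP3 and ZC3H12A. Of all tested genes, 7.82% passed in either direction and 4.77% were higher. Because the members were chosen with this contrast known, nothing is read from that count. The BRSK2 libraries lay wholly above the controls for 4 members (background 9.08%). The median log2 difference of the 10 was 0.41, against 0.002 over all genes. In the authors' deposited table for BRSK2, which lists 723 genes, 4 of the 10 are listed, namely ZC3H12A at 1.64, RELB at 1.55, NFKB2 at 0.62 and NFKBIA at 0.55 (log2).

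With BRSK1, 3 of the 10 genes passed the test and all 3 rose: ZC3H12A, RELB and NFKB2. Of all tested genes, 6.43% passed in either direction and 3.77% were higher. The other 7 members had log2 differences between -0.19 and 0.12, and the median of the 10 was 0.11 against 0.003 over all genes. The BRSK1 libraries lay wholly above the controls for 2 members, NFKB2 and ZC3H12A (background 9.93%), and wholly below them for NFKBIE (background 8.43%). The authors' deposited table for BRSK1 lists 879 genes, among them the same 3 members, with ZC3H12A at 1.02 (adjusted p = 0.0120), RELB at 0.80 (adjusted p = 0.0343) and NFKB2 at 0.39 (adjusted p = 0.0288). The calls of RELB and NFKB2 depended on single libraries: RELB was not called without BRSK1 replicate 2 (0.70, adjusted p = 0.05002), BRSK1 replicate 3 (0.73, adjusted p = 0.0632) or hcRED replicate 1 (0.63, adjusted p = 0.0503). NFKB2 was not called without BRSK1 replicate 2 (adjusted p = 0.103), BRSK1 replicate 3 (0.164), Mock replicate 3 (0.0977), hcRED replicate 1 (0.0607) or hcRED replicate 3 (0.0868).

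**Figure D2:**
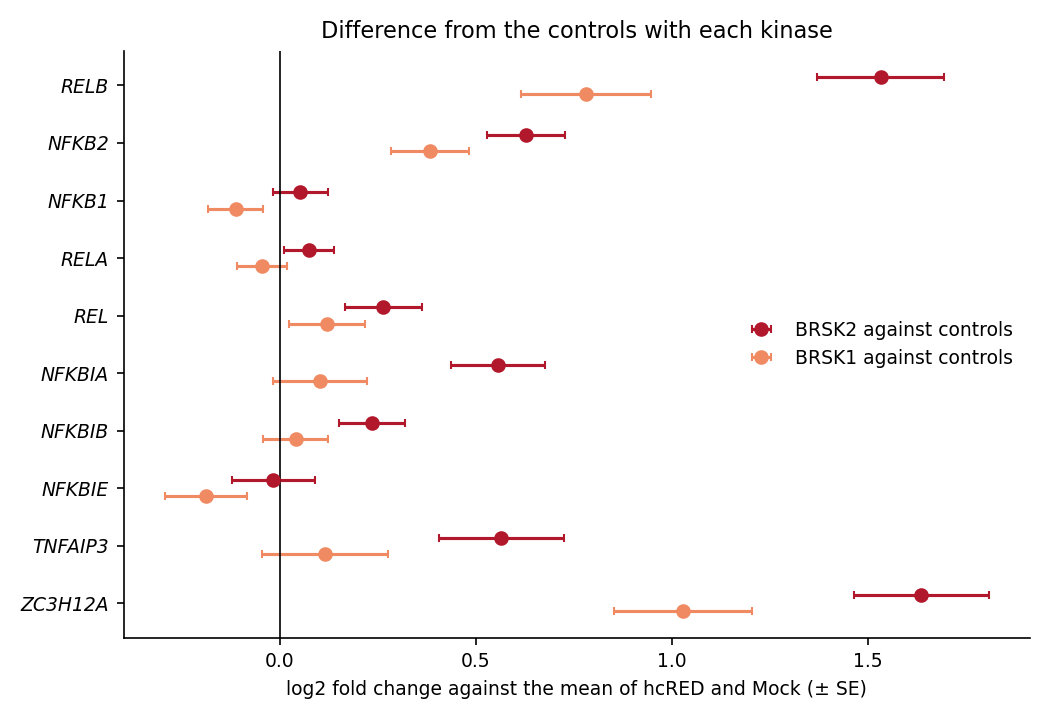
Log2 fold change of each of the 10 genes against hcRED and Mock averaged with equal weight (x axis), with BRSK2 in dark red, BRSK1 in orange and bars of ± 1 SE. RELB and ZC3H12A lie farthest from 0 with both kinases, and every gene has its BRSK2 point to the right of its BRSK1 point.

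All 10 genes had a higher fitted level with BRSK2 than with BRSK1, with log2 differences from 0.12 to 0.75. The largest were 0.75 ± 0.17 for RELB, 0.61 ± 0.17 for ZC3H12A, and 0.45 for NFKBIA (SE 0.13) and TNFAIP3 (SE 0.17). The smallest was 0.12 ± 0.07 for RELA. Libraries of the kinases did not overlap for 6 members, RELB, ZC3H12A, TNFAIP3, NFKBIE, REL and RELA (background 8.65%), although for RELA the nearest libraries, at 101 and 100 CPM, were almost level. The median over the 10 was 0.22, against 0.001 over all genes. RELB was the 1 member past the threshold, which 0.348% of all tested genes passed in either direction and 0.23% as higher. As with BRSK2 against the controls, nothing is read from that count.

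The share of counts taken by the kinase differed between libraries of a group, and some members were ordered like it. In both groups the share rose from replicate 1 to replicate 3, so its order cannot be told apart from that of the replicate numbers. Among the BRSK2 libraries the share was 6.99% in replicate 1, 9.08% in replicate 2 and 10.4% in replicate 3, and 4 of the 10 members, NFKB2, REL, NFKBIA and ZC3H12A, had their lowest, middle and highest levels in the same libraries. NFKBIE ran in the opposite order, and the other 5 in neither. RELB was highest where the share was highest, but its other BRSK2 libraries were level. Among the BRSK1 libraries the share was 4.72%, 6.52% and 6.96%, and 3 members, NFKB2, TNFAIP3 and ZC3H12A, followed the same order and none the opposite one, while RELB and NFKBIA were highest in the library with the middle share. With 3 libraries a group these orders are a description. The share of all genes that follow them was not counted, so nothing is read from the numbers of members. The part of the kinase's level in the differences between BRSK2 and BRSK1 was not tested. The kinases also differed in that share, so kinase and dose cannot be told apart.

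The 2 kinds of control had unequal levels of several members, though no difference passed the test. RELB was higher in both hcRED libraries than in both Mock libraries by 0.71 ± 0.23 on the log2 scale, a 1.64-fold difference that did not pass the test (adjusted p = 0.338). ZC3H12A was 0.57 ± 0.25 apart in the same direction (adjusted p = 0.516), NFKB2 0.23 ± 0.13 (adjusted p = 0.632) and TNFAIP3 0.31 ± 0.22 (adjusted p = 0.697), whereas REL was lower with hcRED, at -0.22 ± 0.13 (adjusted p = 0.626). By edgeR 0 of the 10 members were called between the controls, against 0.0295% of all genes, and 2 had an unadjusted p under 0.05. Limma-voom also called 0, and so did DESeq2, which gave no adjusted p for RELB, TNFAIP3 and ZC3H12A and so could not call them. The libraries did not overlap for 4 members, higher with hcRED for RELB, NFKB2 and ZC3H12A (background 19.9%) and lower for REL (background 20.4%).

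The choice of control moved the values. Against hcRED alone the difference with BRSK2 was 1.18 for RELB and 1.35 for ZC3H12A, and against Mock alone it was 1.89 and 1.92. NFKB2 went from 0.51 to 0.74, NFKBIA only from 0.53 to 0.58, and TNFAIP3 from 0.41 to 0.72. Of the 16936 tested genes, 133 were called with BRSK1 against hcRED alone and 1133 against Mock alone. Beside that, 0 of the 10 members were called with BRSK1 against hcRED alone. ZC3H12A was 0.75 higher (adjusted p = 0.0938), RELB 0.42 (adjusted p = 0.324) and NFKB2 0.27 (adjusted p = 0.305). Against Mock alone the same 3 genes were called, at 1.31 (adjusted p = 0.00180), 1.14 (adjusted p = 0.00345) and 0.50 (adjusted p = 0.0199).

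**Figure D3:**
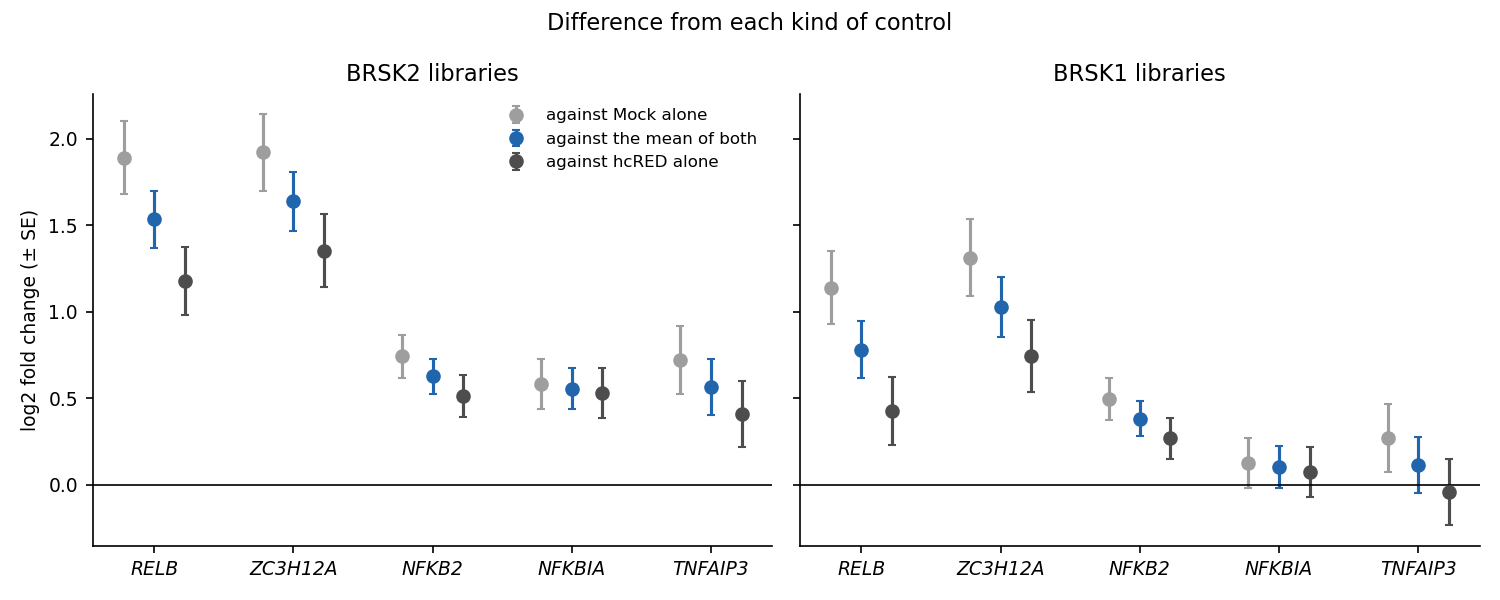
Log2 fold change with BRSK2 (left) and BRSK1 (right) of the 5 genes called with BRSK2 (y axis, ± 1 SE), against Mock alone, the mean of both controls, and hcRED alone. RELB and ZC3H12A fall from 1.89 and 1.92 to 1.18 and 1.35 with BRSK2 as the control changes from Mock to hcRED, while NFKBIA stays between 0.53 and 0.58.

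To compare genes with each other, CPM were divided by the gene length deposited with the counts. In the 4 control libraries the levels were ordered NFKBIB at 19.9 ± 1.89 CPM per kb (SD, n = 4), RELA at 18.0 ± 0.953, NFKB1 at 8.27 ± 0.439, NFKB2 at 6.84 ± 0.781, NFKBIA at 6.79 ± 0.468, NFKBIE at 5.32 ± 0.382, RELB at 1.72 ± 0.646, REL at 1.47 ± 0.194, TNFAIP3 at 1.07 ± 0.234 and ZC3H12A at 0.994 ± 0.260. Neighbours in that order whose control libraries overlapped were NFKBIB and RELA, NFKB1 and NFKB2, NFKB2 and NFKBIA, RELB and REL, REL and TNFAIP3, and TNFAIP3 and ZC3H12A. RELA lay wholly above NFKB1, NFKBIA above NFKBIE, and NFKBIE above RELB. The abundant members were thus RELA, NFKB1, NFKB2 and the 3 inhibitors. RELB and ZC3H12A, which had the largest fold differences, were among the 4 least abundant. With BRSK2, RELB reached 4.83 ± 0.657 CPM per kb (SD, n = 3) and ZC3H12A 3.04 ± 0.367. NFKB2 reached a mean of 10.6 ± 1.77, above NFKB1 at 8.58 ± 0.535, though in BRSK2 replicate 1 they were level, at 8.92 and 8.90. With BRSK1 the mean of NFKB2 was also above that of NFKB1, at 8.89 ± 0.918 against 7.64 ± 0.371 (SD, n = 3).

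The makeup of the subunit pool was described by each subunit's share of the summed CPM per kb of the 5. RELA held 42.5 ± 2.98% (SD, n = 3) with BRSK2, 45.5 ± 3.27% with BRSK1, 48.3 ± 0.735% (n = 2) with hcRED and 50.9 ± 2.48% in Mock. RELB held 10.8 ± 0.940% with BRSK2, 7.42 ± 1.08% with BRSK1, 5.70 ± 1.61% with hcRED and 3.67 ± 0.811% in Mock. NFKB2 held 23.5 ± 2.72%, 23.1 ± 1.55%, 19.9 ± 2.28% and 17.8 ± 1.42% in the same order. RELB and NFKB2, the subunits of the noncanonical dimer, thus held larger mean shares in the libraries with a kinase, and RELA and NFKB1 smaller ones. Single libraries overlapped: NFKB2 held 21.5% in hcRED replicate 1, against 20.9% in BRSK2 replicate 1 and 21.3% in BRSK1 replicate 1. RELB held 6.84% in hcRED replicate 3, against 6.24% in BRSK1 replicate 1. NFKB1 held 19.2 ± 1.46% with BRSK2 and 23.1 ± 2.33% in Mock, and REL held between 3.62 and 5.005% in every library. The shares add to a fixed total, so a larger share of 1 subunit lowers the others, and they describe RNA, not dimers.

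**Figure D4:**
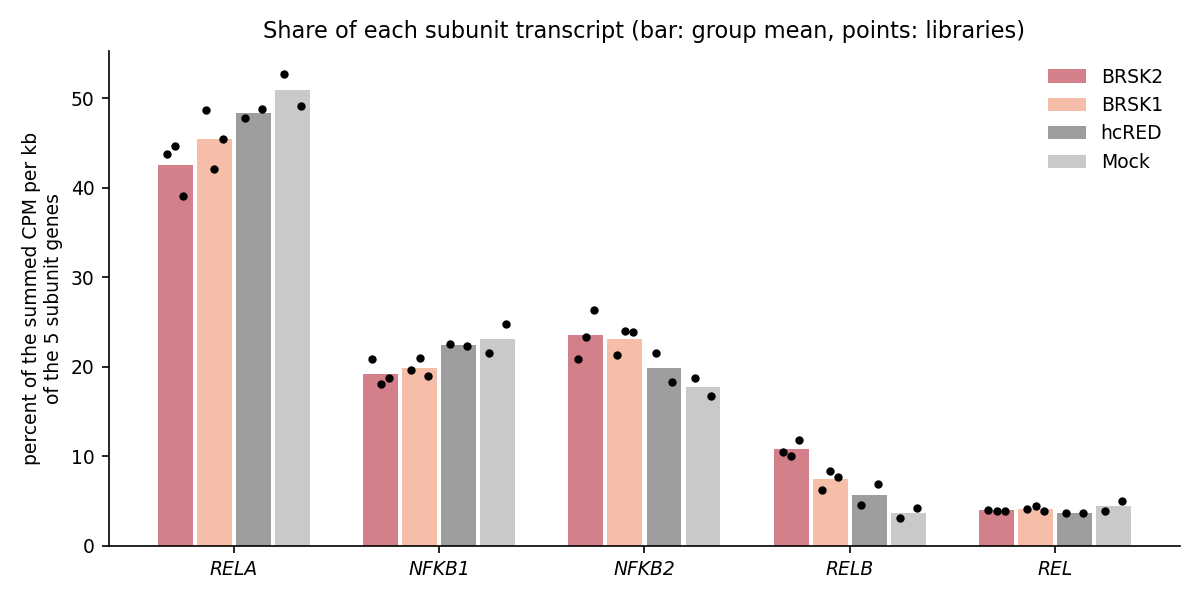
Share of each of the 5 NF-kB subunits in their summed CPM per kb (y axis, percent) in each group, with 1 point per library and a bar at the mean. RELB lies at 10.0 to 11.8% in the BRSK2 libraries and at 3.10 to 6.84% in the 4 controls.

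Across the 10 libraries the members' log2 CPM varied together to different degrees, given here as Pearson's r with no test, since the 4 groups and the library scaling are shared by all pairs. RELB and ZC3H12A had r = 0.96, NFKB2 and ZC3H12A 0.91, RELB and NFKB2 0.87, and RELB and TNFAIP3 0.82. NFKBIA and NFKBIB had r = 0.85. RELA and NFKB1 had r = 0.03 with each other, and NFKB2 and NFKBIE had r = -0.48. Among 11076 genes with a mean of at least 5 CPM, those most like RELB were DUSP16 (r = 0.98), FXR2 (0.97), SETDB1 (0.97), ZC3H12A (0.96) and PVR (0.96). DUSP16 is a MAP kinase phosphatase, SETDB1 a histone H3 methyltransferase and PVR a cell-surface adhesion protein. Those most like ZC3H12A were DUSP8 (r = 0.99), another MAP kinase phosphatase, VPS11 (0.99), FURIN (0.98), a proprotein convertase, CDT1 (0.97), which licenses replication origins, and LEMD2 (0.97). Apart from ZC3H12A itself, their differences with BRSK2 spanned 0.24 ± 0.06 for DUSP16 to 1.40 ± 0.16 for DUSP8 (log2). A like pattern over libraries thus did not mean a like size.

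The other genes of the pathway came from 8 lists of kinases, adaptors, ubiquitin regulators, receptors, ligands, nuclear IκB proteins, targets and Regnase-related genes, with 129 genes in all, of which 85 were tested. With BRSK2, 11 of the 85 rose, 2 fell and 72 did not pass the test. With BRSK1, 4 rose, 2 fell and 79 did not pass. With library totals in place of TMM scaling the split was 7 higher and 12 lower with BRSK2, and 2 higher and 3 lower with BRSK1. Over all genes library totals called 494 higher and 2507 lower with BRSK2, and 463 higher and 733 lower with BRSK1. The medians of the 85 genes with TMM scaling were 0.04 with either kinase. The background with TMM scaling is that given for the members, 7.82% and 6.43% of all genes. The lists too were chosen with earlier results of these data known. Nothing is therefore read from their counts, and the tests of their genes below are not independent of that choice. Against hcRED alone 3 of these genes were called with BRSK2 (TAB1, NFKBIZ and IER3) and 1 with BRSK1 (NFKBIZ). Of all 16936 genes, 606 and 133 were called in those 2 contrasts. Leaving out 1 library gave 5 to 18 called genes of the lists with BRSK2 and 1 to 12 with BRSK1.

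Upstream, MAP3K14, which encodes NIK, rose with BRSK2 by 0.62 ± 0.12 (log2, adjusted p = 0.00283), from a mean of 7.29 CPM in the controls to 11.1 CPM. With BRSK1 its difference of 0.39 ± 0.12 did not pass (adjusted p = 0.0593), and against hcRED alone neither did that with BRSK2 (0.43, adjusted p = 0.114). TAB1, an activator subunit of the kinase TAK1, rose by 0.31 ± 0.06 with BRSK2 (adjusted p = 0.00321), and TRAF2, a receptor adaptor, by 0.24 ± 0.07 (adjusted p = 0.0352). IRAK1, a kinase of the Toll-like and IL-1 receptor pathway, fell by 0.31 ± 0.07 with BRSK1 (adjusted p = 0.0149). These were the only called genes among the 25 kinases and adaptors, whose median was -0.06 with BRSK2 and 0.01 with BRSK1. With library totals in place of TMM scaling 2 of the 25 were higher and 7 lower with BRSK2, and TRAF2 was not called (adjusted p = 0.205).

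Of the ubiquitin and deubiquitinase regulators, 4 of 14 tested rose with BRSK2, beside 4.77% of all genes. RNF31 (0.38 ± 0.08, adjusted p = 0.00502) and RBCK1 (0.33 ± 0.07, adjusted p = 0.00677) are subunits of the linear ubiquitin ligase, and OTUD7B (0.24 ± 0.06, adjusted p = 0.0189) and USP21 (0.29 ± 0.08, adjusted p = 0.0260) remove ubiquitin. RBCK1 alone rose with BRSK1, by 0.25 ± 0.07 (adjusted p = 0.0399). None of these 4 was called against hcRED alone. With library totals in place of TMM scaling the list had 2 higher and 3 lower genes with BRSK2. USP21 (adjusted p = 0.107) and OTUD7B (adjusted p = 0.139) were then not called, nor was RBCK1 with BRSK1 (adjusted p = 0.0822).

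Among 11 tested receptors, TNFRSF12A, the receptor of TWEAK, rose by 0.61 ± 0.13 in the BRSK2 libraries (adjusted p = 0.00625). Its rise of 0.44 ± 0.13 in the BRSK1 libraries was at the threshold (adjusted p = 0.0496). TNFRSF10B, a death receptor for TRAIL, rose by 0.24 ± 0.07 (adjusted p = 0.0349) and 0.30 ± 0.07 (adjusted p = 0.0146) in the same order. Neither was called with either kinase against hcRED alone. With library totals TNFRSF10B was not called with BRSK2 (adjusted p = 0.179), nor TNFRSF12A with BRSK1 (adjusted p = 0.0645). Of 12 ligand genes, 9 were too low to test. TNF had a mean of at most 0.120 CPM in any group, and no count of IL6, a target of NF-kB and of Regnase-1, was found in any library.

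Downstream, the nuclear IκB gene NFKBIZ, a transcript that Regnase-1 is known to cleave, rose with both kinases, by 0.68 ± 0.15 in the BRSK2 libraries (adjusted p = 0.00615) and 0.70 ± 0.15 in the BRSK1 libraries (adjusted p = 0.00717), and was called with both against hcRED alone. Its mean level was 7.54 CPM with BRSK2, 7.63 CPM with BRSK1 and 4.69 CPM in the controls. It was not called with BRSK1 when BRSK1 replicate 2 was left out (adjusted p = 0.0512). BCL3, another nuclear member, was 0.74 ± 0.24 higher with BRSK2 (adjusted p = 0.0583) and 0.07 with BRSK1.

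Of 40 known NF-kB targets outside the members, 20 were tested, and 1 rose and 1 fell with BRSK2. IER3, an early-response gene, rose by 0.89 ± 0.19 (adjusted p = 0.00491), and CCND1, cyclin D1, fell by 0.37 ± 0.11 (adjusted p = 0.0328). Those 2 of 20 stand beside 7.82% of all genes. With BRSK1 0 of the 20 were called by edgeR, beside 6.43% of all genes, 3 had an unadjusted p under 0.05, and the list's median was 0.10 with BRSK2 and 0.02 with BRSK1.

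Of the 5 tested Regnase-1 target transcripts, NFKBIZ was the only one called with either kinase. PTGS2, which encodes a prostaglandin synthase, was 0.51 ± 0.23 higher in the BRSK2 libraries (adjusted p = 0.180), and 0.60 ± 0.22 higher in those with BRSK1 (adjusted p = 0.104). Among the 8 genes related to Regnase-1 and Roquin, NYNRIN, which carries a related nuclease-like domain, fell by 0.56 ± 0.13 in the BRSK2 libraries (adjusted p = 0.0136) and by 0.44 ± 0.13 in the BRSK1 libraries (adjusted p = 0.0456), and the other 7 did not pass. UPF1, the helicase that works with Regnase-1, was at 0.16 ± 0.05 with BRSK2 (adjusted p = 0.0708). Between BRSK2 and BRSK1, 0 of the 85 genes were called by edgeR, beside 0.348% of all genes, so nothing is read from that 0. Of the 85, 11 had an unadjusted p under 0.05, which was not counted over all genes.

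**Figure D5:**
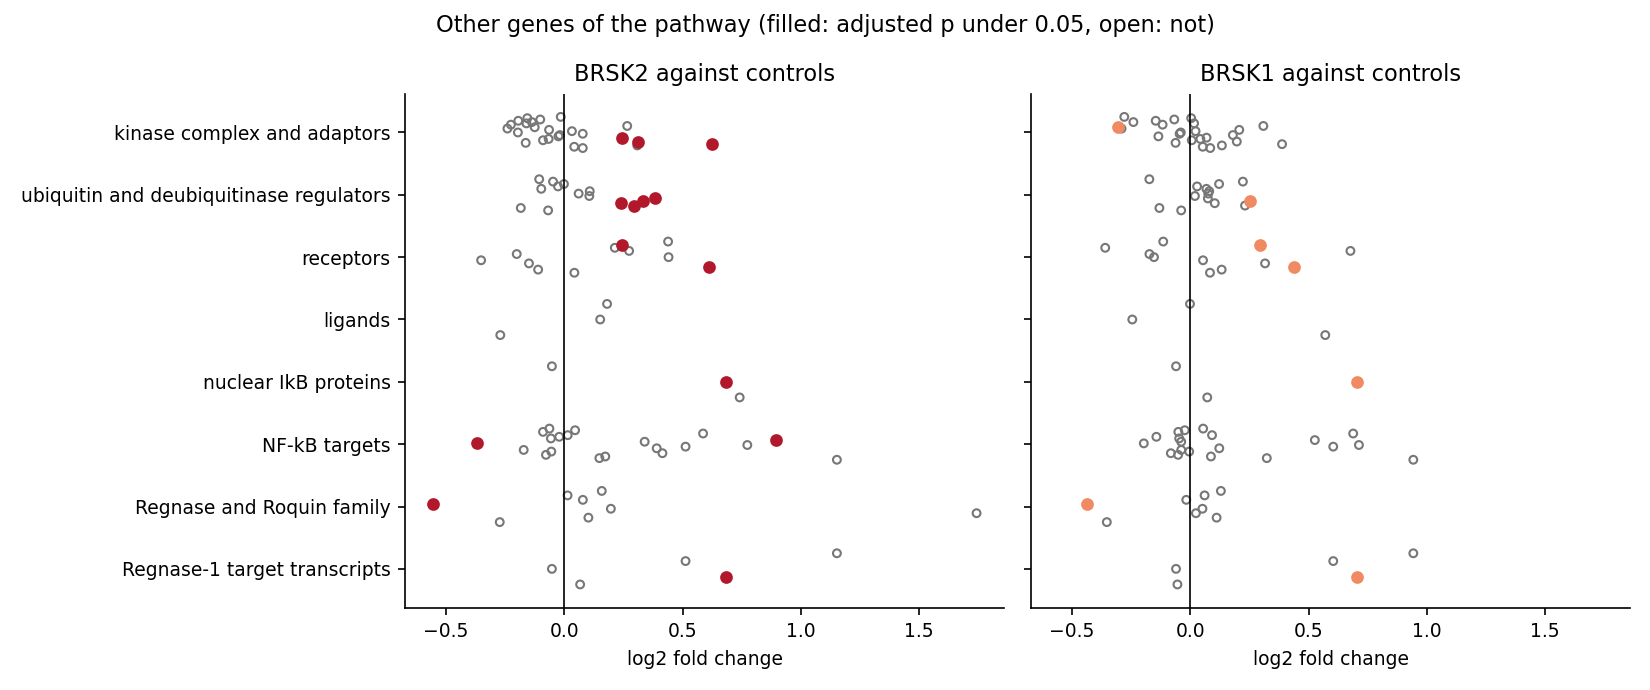
Log2 fold change (x axis) of each tested gene of the 8 pathway lists with BRSK2 (left) and BRSK1 (right) against the controls, with called genes filled and the others open. Most points are open in every list, and NFKBIZ, counted in 2 lists, is filled in both panels.

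The labelled cell type was checked with marker genes. All 6 markers of HEK293T were above 1 CPM in every library, and their summed level was 383 to 388 CPM with BRSK1, 398 to 411 CPM with BRSK2, 375 to 380 CPM in Mock and 314 to 322 CPM with hcRED. Of the 6, 2 were called higher with BRSK2 than in the averaged controls, both intermediate filament genes. These were VIM at 0.40 ± 0.06 (adjusted p = 0.000464) and NEFM at 0.23 ± 0.06 (adjusted p = 0.0163). NEFM was level with Mock, at a mean of 182 CPM with BRSK2, 180 CPM in Mock and 134 CPM with hcRED. VIM alone rose with BRSK1, by 0.46 ± 0.06 (adjusted p = 0.000241), and NEFM alone was called between the controls, lower with hcRED at -0.42 on the log2 scale (adjusted p = 0.0480). KRT8 was at -0.26 ± 0.09 with BRSK2 (adjusted p = 0.0852). Leukocyte markers, which bear on immune genes such as the members, summed to 4.33 to 7.24 CPM over 10 genes. Their range was 5.90 to 7.12 CPM with BRSK2, 4.33 to 5.76 CPM with BRSK1, 5.79 to 7.24 CPM with hcRED and 4.54 to 4.90 CPM in Mock. PTPRC, the defining marker, had no count in any library, and 8 of the 10 stayed under 1 CPM in every library. The summed HEK293T markers were lowest with hcRED, and the part of that and of the leukocyte markers in the members' values was not tested. Of 8 fibroblast and endothelial markers, which summed to 25.6 to 41.2 CPM, none of the 4 tested was called with either kinase by edgeR.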

How the data were processed

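Raw read counts per gene, the gene lengths and 2 lists of the authors' comparisons with log2 fold changes and adjusted p-values (q-values) were used as deposited by the authors. Per the submitters' processing notes, STAR, edgeR, limma and the hg38 build were involved. The sources used here do not give the counting tool, strand setting or gene filters. The authors' deposited test statistics (scores) and log2 CPM of listed genes were not used. The count tables for BRSK1 and BRSK2 were joined by gene identifier, and the 4 control libraries held identical counts in both. The members, gene lists and tests were chosen with earlier results of these data known. All 10 members are named, with up to 4 genes of each list (called ones first, then by p) and the 5 genes most like RELB and ZC3H12A. Genes passing edgeR's filterByExpr (minimum count 10, minimum total 15) were fitted with edgeR 4.0.16 (TMM scaling, robust quasi-likelihood, 4 group means, R 4.3.3), and SEs are the log2 fold change over the square root of F. The common biological coefficient of variation was 8.06%. Scripts were tested on simulated data. Alternatives were other scalings, filters and tools (DESeq2 1.42.0, limma-voom 3.58.1), each kind of control alone, a replicate block and leaving out each library. Log2 CPM for correlations used a prior count of 2. Promoter and start-site sequences are from RefSeq (GRCh38.p14), gene positions from the hg38 columns deposited with the counts.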

Additional observations from a re-analysis of the deposited data

How the results depend on the processing

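Over 20 alternatives the log2 difference with BRSK2 ranged from 1.18 to 1.89 for RELB, 1.35 to 1.92 for ZC3H12A, 0.50 to 0.74 for NFKB2, 0.45 to 0.70 for NFKBIA and 0.41 to 0.72 for TNFAIP3. Since the members were chosen with that contrast known, these ranges and the counts of members called with BRSK2 or between the kinases below are a description and support nothing. The cause of each change below was not tested. Genes called numbered 1325 with BRSK2, 1089 with BRSK1, 59 between the kinases and 5 between the controls. Library totals alone, without TMM scaling, gave 3001 with BRSK2 (494 higher, 2507 lower, against 808 and 517) and 206 between the kinases (24 higher, 182 lower, against 39 and 20), split the calls with BRSK1 into 463 higher and 733 lower (against 638 and 451), moved the median of all genes with BRSK2 from 0.002 to -0.10, turned NFKB1 to -0.053 and RELA to -0.031 with BRSK2, and put RELA at 0.045 between the controls. Against hcRED alone 606 genes were called with BRSK2 and 133 with BRSK1, 0 members were called with BRSK1, and NFKBIE with BRSK2 turned to 0.038, TNFAIP3 with BRSK1 to -0.041 and TRAF2 with BRSK1 to -0.0031. Against Mock alone NFKBIB with BRSK1 turned to -0.029. Between the kinases, no filter on low counts gave 188 genes and 2 members, limma-voom 0 members, and a fit of only the groups compared 20 genes. DESeq2 gave 190 genes and 0 members there, with no adjusted p for RELB, ZC3H12A, TNFAIP3, NFKBIA, NFKBIE and REL, which it could not call. Between the controls, no filter gave 128 genes, the filter of 1 CPM in 3 libraries 3, DESeq2 52, limma-voom 2 and the fit of only the groups compared 0. Leaving out 1 library gave 346 to 2211 genes and 3 to 6 members with BRSK2 (fewest genes and members without BRSK2 replicate 3), 204 to 1751 genes and 1 to 3 members with BRSK1, 7 to 64 genes and 0 to 1 member between the kinases, and 0 to 49 genes and 0 members between the controls. Leaving out 1 library also turned the sign of small differences: NFKBIE with BRSK2 ranged from -0.082 to 0.031 (above 0 without BRSK2 replicate 3 and without Mock replicate 3), and with BRSK1 RELA from -0.082 to 0.013, NFKBIA from -0.014 to 0.201 and NFKBIB from -0.020 to 0.096 (all 3 turned without BRSK1 replicate 2, NFKBIB also without Mock replicate 3). Between the controls NFKB1 ranged from -0.056 to 0.113, RELA from -0.072 to 0.063 and NFKBIA from -0.042 to 0.151.

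A replicate block gave 2153 genes with BRSK2, 1999 with BRSK1, 267 between the kinases and 434 between the controls, with 7, 3, 3 and 1 members called. It called RELB between the controls (0.81, adjusted p = 0.0281) and put RELA there at 0.0040. Whether the replicate numbers mark a shared batch is not given in the labels. The deviations of same-numbered libraries correlated at -0.05 to 0.16 over 12 pairs, 2 of them over 0.1. Of the 25 pairs with different numbers 0 were over 0.1, though not every library correlated best with its own number. In groups of 2 libraries the deviations mirror each other, so the pairs are not independent and do not settle whether a batch was shared. At a depth of 16516116 counts or more per library, 9 of the 12 ligand genes were too low to test. The part of depth in that was not tested.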
